A study of Mus musculus with 80 samples.

Results

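The genes described here are 7 components of the Nodal pathway, namely the ligands Nodal and Gdf3, the co-receptor Tdgf1, the receptor Acvr2b, the transcription factor Foxh1 and the inhibitors Lefty1 and Lefty2. They were taken by symbol from a table of 25965 genes, in which each of them had 1 row, and all 7 were among the 12306 genes that passed the filter on low values. The table holds RNA-seq of the mouse embryonic stem cell (ESC) line E14, labelled wild-type, in serum and after 6, 24 and 72 h in 2i, with 3 libraries per group. Serum cells were grown in serum medium with LIF, and 2i is a serum-free medium with LIF and inhibitors of the kinases MEK and GSK3, so LIF was present in every group. ChIP-seq for H3K9me2, dimethylated lysine 9 of histone H3, came from the same line in serum, at 24 h of 2i and in long-term 2i (LT2i), with 2 bound libraries and 1 input per state. All groups are a single cell line in culture.

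Nodal is a secreted ligand of the TGF-beta family. Together with the co-receptor Tdgf1 (Cripto) it engages activin receptors, which phosphorylate Smad2 and Smad3, and these act with Smad4 and Foxh1 on target genes. Lefty1 and Lefty2 are targets of the pathway and secreted inhibitors of it, which makes a negative feedback loop, and ESCs are known to express both ligand and inhibitors.

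Lefty1 rose 2.53-fold at 6 h and 3.97-fold at 24 h and was 2.66-fold lower than in serum at 72 h. Lefty2 rose 1.90-fold at 24 h, whereas Foxh1 and Acvr2b fell at 24 and 72 h by 1.50-fold to 1.87-fold. Nodal rose 1.31-fold at 6 h and did not pass the threshold against serum at 24 or 72 h, and Gdf3 did not pass it at any of the 3 times. These missing calls depended on the fit: Gdf3 was called lower at 24 h once the replicate number entered as a block (adjusted p = 0.0203), and both genes were called lower at 72 h once a trend of change with gene span was removed. The Nodal call at 6 h was lost in 4 of the 12 fits that left out a library. Tdgf1 was 1.45-fold lower at 6 h, 1.36-fold higher at 24 h and 1.54-fold higher at 72 h. Each of these Tdgf1 calls was lost under another scaling or without single libraries, and quantile normalisation turned the sign at 24 h.

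Levels are the log2 values of the authors, which account for the length of the gene and the depth of the library and share a 75th percentile of 2.51 in every library. A difference of 1 on this scale is a factor of 2, and the depth of the RNA-seq libraries is unknown. Changes were tested with limma in a fit over all 12 libraries. Below, p-values are Benjamini-Hochberg adjusted over all genes tested unless stated, and a gene counts as called under 0.05. The libraries carried the stem cell markers at a summed linear level of 819 to 1355 (6 genes), against 3.46 to 4.79 for 6 primitive endoderm markers, of which Sox17, Sox7 and Pdgfra stayed below 0 on the log2 scale in all 12 libraries. The summed level of 3 post-implantation epiblast markers was 24.1 to 26.4 in serum, 2.62 to 2.90 at 6 h, 1.76 to 2.49 at 24 h and 1.35 to 1.88 at 72 h. That of 5 primitive streak and mesoderm markers was 3.60 to 4.46 in serum, 2.32 to 2.93 at 6 h, 1.35 to 1.58 at 24 h and 3.07 to 3.28 at 72 h, with Mixl1, Mesp1 and Kdr below 0 in all 12. For 4 fibroblast markers it was 7.39 to 9.52 in serum, 7.92 to 8.73 at 6 h, 4.61 to 7.60 at 24 h and 4.41 to 4.84 at 72 h, with Col1a2 and Dcn below 0 in all 12, and for 3 trophoblast markers, led by the keratin Krt8, it was 54.9 to 63.3 in serum, 60.4 to 65.9 at 6 h, 45.4 to 88.8 at 24 h and 24.5 to 44.9 at 72 h. The part of these markers in the changes below was not tested. T, Mixl1 and Eomes, of the primitive streak and mesoderm markers, are also in the list of pathway targets used below. In bulk RNA a smaller number of cells of a type cannot be told apart from less RNA per cell.

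RefSeq promoters were at hand for 3 of the 7 genes. They are shown because the log2 changes of these genes at 72 h ranged from 0.62 in Tdgf1 to -0.15 in Nodal and -0.90 in Acvr2b. Each run is the 250 bases before the RefSeq start (GRCm38.p6), 5′ to 3′ on the strand of the gene, and capitals mark a match to CAGAC, the core of the Smad site, on either strand.
Tdgf1, chr9:110946159-110946408, minus strand: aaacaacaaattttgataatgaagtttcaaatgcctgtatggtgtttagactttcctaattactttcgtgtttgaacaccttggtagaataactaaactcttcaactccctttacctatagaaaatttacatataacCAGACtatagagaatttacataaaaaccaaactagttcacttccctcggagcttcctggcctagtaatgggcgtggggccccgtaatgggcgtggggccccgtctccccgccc
Acvr2b, chr9:119401928-119402177, plus strand: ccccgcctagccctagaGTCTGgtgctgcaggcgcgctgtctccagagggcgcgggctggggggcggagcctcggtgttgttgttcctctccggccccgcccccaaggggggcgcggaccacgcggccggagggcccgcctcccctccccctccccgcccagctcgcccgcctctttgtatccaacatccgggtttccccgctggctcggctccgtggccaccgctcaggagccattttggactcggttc
Nodal, chr10:61417722-61417971, plus strand: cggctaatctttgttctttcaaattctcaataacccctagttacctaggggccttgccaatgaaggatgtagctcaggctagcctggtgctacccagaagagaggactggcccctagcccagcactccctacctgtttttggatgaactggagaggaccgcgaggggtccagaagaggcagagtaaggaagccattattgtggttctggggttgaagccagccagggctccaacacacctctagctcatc

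The Tdgf1 and Acvr2b windows each held 1 match to CAGAC, 113 and 233 bases before the start respectively, and the Nodal window held 0. Of 32851 promoters of this length, 42.2% held that core, so a match in 2 of 3 windows is close to the background. The Foxh1 motif AATNCACA (3.18% of promoters), the palindromic Smad site GTCTAGAC (0.167%) and the Tcf/Lef motif CTTTGA (13.8%) had 0 matches in the 3 windows, searched on both strands. GTCTAGAC holds no CAGAC, and the motifs were counted separately. The Acvr2b start in RefSeq lies 266 bases from the start in the expression table, and the other 2 starts are the same in both.

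The ligands were examined first. Nodal (chromosome 10, 61417972 to 61425338, plus strand, GRCm38) stood at 4.48, 4.39 and 4.30 in serum, 4.84, 4.81 and 4.69 at 6 h, 4.55, 4.67 and 4.42 at 24 h and 4.29, 4.32 and 4.11 at 72 h. All 3 libraries of 6 h lay above all 3 of serum, and the later groups overlapped with serum. The log2 change at 6 h was 0.39 (SE 0.10, adjusted p = 0.0241). This call was lost when serum replicate 2, serum replicate 3, 6 h replicate 1 or 6 h replicate 2 was left out, with log2 changes of 0.35 to 0.40 and adjusted p of 0.0781 to 0.0983. At 24 h the change was 0.16 (95% interval -0.07 to 0.39, adjusted p = 0.193), and at 72 h it was -0.15 (-0.37 to 0.08, adjusted p = 0.260). With the trend of change with gene span removed, the 72 h change was -0.22 and passed the threshold (adjusted p = 0.0438). At 24 h its sign turned, to -0.16, once the trend of change with gene span was removed. From 24 to 72 h Nodal fell by 0.31 on the log2 scale (adjusted p = 0.0433). That call was lost in 10 of the 12 fits that left out a library, all but 24 h replicate 3 and 72 h replicate 2 (adjusted p of 0.0509 to 0.157), and with the span trend removed the change was -0.066.

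Gdf3 (chromosome 6, 122605403 to 122610087, minus strand), a ligand related to Nodal, stood at 4.82, 4.87 and 4.52 in serum and at 5.00, 4.94 and 4.80 at 6 h. It was at 4.52, 4.68 and 4.23 at 24 h and at 4.61, 4.76 and 4.30 at 72 h. The libraries of each 2i group overlapped with those of serum. The log2 changes from serum were 0.18 at 6 h (95% interval -0.16 to 0.52), -0.26 at 24 h (-0.60 to 0.08) and -0.18 at 72 h (-0.52 to 0.16), with adjusted p of 0.556, 0.167 and 0.358. With the replicate number as a block, the 24 h change of -0.26 passed the threshold (adjusted p = 0.0203), as it did under quantile normalisation (change -0.30, adjusted p = 0.0393) and with the span trend removed (-0.66, adjusted p = 0.000200). Removing that trend also brought the 72 h change past it (-0.30, adjusted p = 0.0262). Between 6 and 24 h Gdf3 fell by 0.44 on the log2 scale (SE 0.15, adjusted p = 0.0305), and the groups did not overlap.

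Tdgf1 (chromosome 9, 110939610 to 110946158, minus strand), the co-receptor, was the most abundant of the 7 genes in every group. It stood at 7.87, 7.87 and 7.49 in serum, 7.31, 7.26 and 7.06 at 6 h, 8.35, 8.21 and 8.02 at 24 h and 8.36, 8.45 and 8.30 at 72 h. The 6 h libraries lay below all serum libraries, and those of 24 and 72 h above them. The log2 change was -0.53 at 6 h (SE 0.15, adjusted p = 0.0292), 0.45 at 24 h (adjusted p = 0.0198) and 0.62 at 72 h (adjusted p = 0.00413). The direction at 24 h depended on the scaling: quantile normalisation gave -0.22 (adjusted p = 0.243), and removing the span trend gave 0.10 (adjusted p = 0.437). The 24 h call was also lost in a fit of the serum and 24 h libraries alone (adjusted p = 0.0811). Tdgf1 lay at percentile 99.5 of the table in serum and 99.4 at 24 h. The 72 h change was 0.30 under quantile normalisation (adjusted p = 0.130). The 6 h call was lost in 5 of the 6 fits that left out a serum or 6 h library, all but serum replicate 3, with changes of -0.58 to -0.46 and adjusted p of 0.0614 to 0.129, and the 24 h call without serum replicate 3 (change 0.32) or 24 h replicate 1 (change 0.37). RefSeq lists the pseudogene copies Tdgf1-ps1 on chromosome 16 and Tdgf1-ps2 on chromosome 17, and the sources used here do not say how reads were divided among the copies.

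Acvr2b (chromosome 9, 119402444 to 119433501, plus strand), a type II activin receptor, was the least abundant. It stood at 2.27, 2.42 and 2.52 in serum, 1.99, 2.27 and 2.29 at 6 h, 1.57, 1.80 and 1.37 at 24 h and 1.30, 1.68 and 1.53 at 72 h. The 6 h group overlapped with serum, while every library of 24 and 72 h lay below all of serum. The change at 6 h was -0.22 (95% interval -0.54 to 0.11, adjusted p = 0.413). Acvr2b fell by 0.82 on the log2 scale at 24 h (SE 0.15, adjusted p = 0.000606) and by 0.90 at 72 h (adjusted p = 0.000365). The difference between 72 and 24 h was -0.08 (95% interval -0.40 to 0.24).

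Foxh1 (chromosome 15, 76668284 to 76669948, minus strand), the forkhead factor that brings Smad complexes to DNA, took a similar course. It stood at 4.57, 4.57 and 4.69 in serum, 4.46, 4.34 and 4.43 at 6 h, 4.12, 4.07 and 3.88 at 24 h and 3.81, 4.00 and 3.53 at 72 h. Each 2i group lay wholly below serum. The 6 h change of -0.20 (95% interval -0.47 to 0.07) did not pass the threshold (adjusted p = 0.362). Foxh1 fell by 0.59 on the log2 scale at 24 h (SE 0.12, adjusted p = 0.00183) and by 0.83 at 72 h (adjusted p = 0.000203). With the span trend removed the 24 h change was -1.10. In RefSeq the Foxh1 gene overlaps the end of Kifc2 by 368 bases, and the library kit does not mark strand. In the coordinates of the expression table they do not overlap, since Kifc2 ends 88 bases from the 3′ end of Foxh1.

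The inhibitors showed the widest range. Lefty1 (chromosome 1, 180935022 to 180938400, plus strand) stood at 4.11, 4.07 and 4.30 in serum, 5.46, 5.48 and 5.56 at 6 h, 6.57, 6.36 and 5.53 at 24 h and 2.63, 3.05 and 2.57 at 72 h. All libraries of 6 and 24 h lay above serum and all of 72 h below it. The log2 change was 1.34 at 6 h (SE 0.23, adjusted p = 0.00202), 1.99 at 24 h (adjusted p = 2.77e-05) and -1.41 at 72 h (adjusted p = 0.000343). These 3 calls held in each of the 12 fits that left out a library. From 24 to 72 h Lefty1 fell by 3.40 on the log2 scale, a 10.6-fold difference (adjusted p = 3.05e-06). The rise from 6 to 24 h, 0.65 (adjusted p = 0.0286), was within the overlap of the groups, since 24 h replicate 3 (5.53) lay below 6 h replicate 3 (5.56). It was lost under quantile normalisation (0.38, adjusted p = 0.0605), after removal of the span trend (0.20, adjusted p = 0.220) and without any of the 3 libraries of 6 h, 24 h replicate 1 or 24 h replicate 2 (0.44 to 0.68), and without 24 h replicate 3 it was 0.97 (adjusted p = 0.000169).

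Lefty2 (chromosome 1, 180893108 to 180899103, plus strand) ends 35919 bases before the start of Lefty1. It stood at 3.65, 3.55 and 3.64 in serum, 3.75, 3.71 and 3.91 at 6 h, 4.75, 4.57 and 4.29 at 24 h and 3.42, 3.45 and 3.12 at 72 h. The 6 and 24 h libraries lay above serum, and those of 72 h below it. The change of 0.18 at 6 h (95% interval -0.11 to 0.47) did not pass the threshold (adjusted p = 0.469). Lefty2 rose by 0.92 at 24 h (SE 0.13, adjusted p = 0.000139) and stood 0.28 below serum at 72 h (95% interval -0.58 to 0.01, adjusted p = 0.0950), a difference that passed the threshold without 24 h replicate 3 (adjusted p = 0.0446) and with the span trend removed (-0.38, adjusted p = 0.00562). Removing that trend lowered the 24 h change to 0.56, which was still called. From 24 to 72 h it fell by 1.21 on the log2 scale (adjusted p = 9.11e-05).

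**Figure D1:**
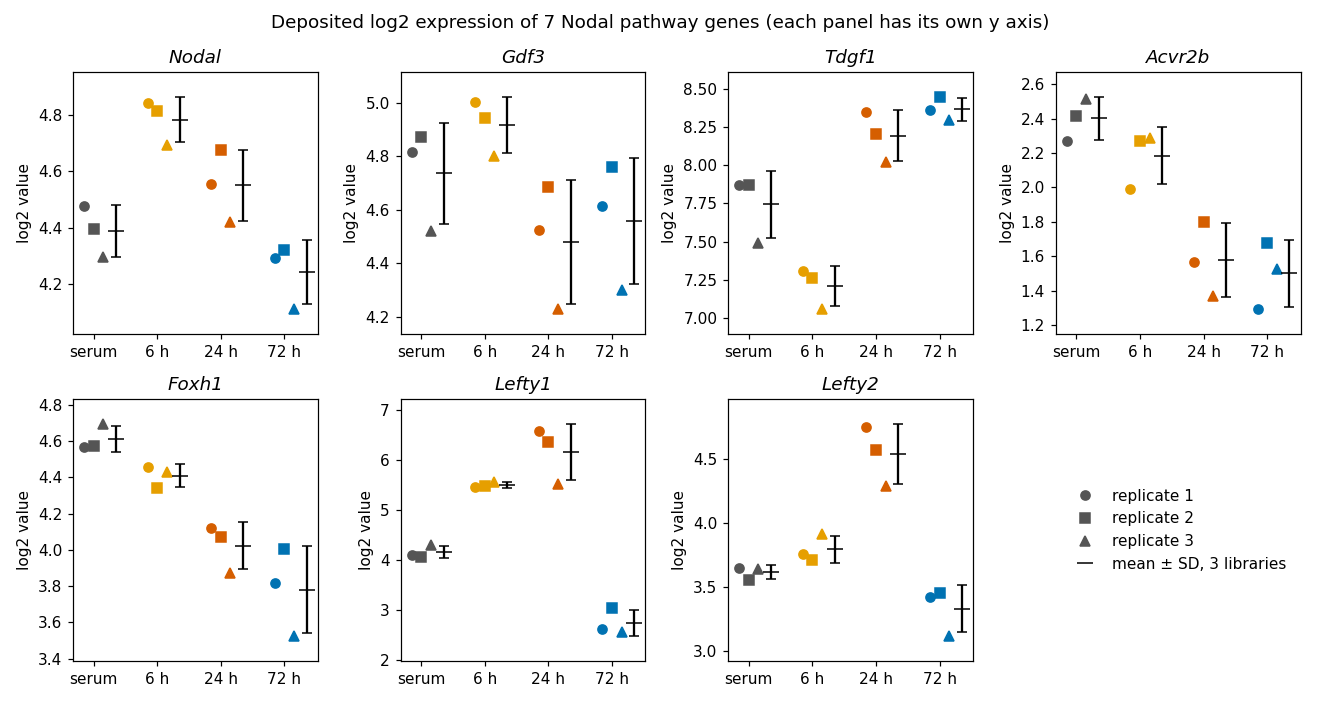
Deposited log2 expression values (y axis, each panel on its own scale) of the 7 genes in serum and at 6, 24 and 72 h of 2i, with 1 symbol per library and the mean ± SD of 3 libraries. Lefty1 ranges from 5.53 to 6.57 at 24 h and from 2.57 to 3.05 at 72 h, and 24 h replicate 3 (triangle) is the lowest of its group in all 7 panels.

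Taken within each library, the level of Lefty1 relative to Lefty2, per length, differed in sign between 72 h and the other groups. The difference of their log2 values, Lefty1 minus Lefty2, averaged 0.55 ± 0.10 in serum (SD, n = 3). At 6 and 24 h it averaged 1.71 ± 0.06 and 1.62 ± 0.33, and at 72 h -0.58 ± 0.19. It was above 0 in all 9 libraries of the first 3 groups and below 0 in the 3 of 72 h, from -0.78 to -0.40. Lefty1 and Lefty2 are close paralogs, and the sources used here do not say how shared reads were counted. RefSeq also places the gene model Gm39715 over 2677 bases of Lefty1.

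The order of the 7 levels, per length, changed with time. In serum it ran Tdgf1, Gdf3, Foxh1, Nodal, Lefty1, Lefty2 and Acvr2b, and the neighbours Gdf3 and Foxh1, and Nodal and Lefty1, overlapped between libraries. At 6 and 24 h Lefty1 came next after Tdgf1, clear of the gene below it. Gdf3 and Nodal overlapped at 6 h, and Nodal, Lefty2 and Gdf3 at 24 h. At 72 h Lefty1 was next to last, and Gdf3 and Nodal overlapped. Tdgf1 and Acvr2b were first and last in each group, without overlap with their neighbours.

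Against serum, 2 of the 7 genes were called higher at 6 h (9.13% of all genes tested were called higher) and 1 lower (6.48%). At 24 h, 3 were higher (34.2%) and 2 lower (29.1%), and at 72 h, 1 was higher (25.7%) and 3 lower (26.5%). Between 6 and 24 h, 3 rose (31.4%) and 3 fell (28%), and between 24 and 72 h, 0 rose (15.8%) and 3 fell (15.7%). The median change of the 7 genes was 0.18, 0.16 and -0.28 at 6, 24 and 72 h against serum, beside 0.01, 0.11 and -0.01 over all genes tested. Removing the span trend moved the 24 h median of all genes to 0.0043. The same removal turned the sign of the 24 h change of Nodal, whose 0.16 is the member median. It also lowered the 24 h changes of Gdf3, Foxh1, Tdgf1 and Lefty2. The medians above are therefore compared on the deposited scaling only. Calls in either direction took 63.3% of all genes at 24 h and 52.2% at 72 h, so 5 and 4 of the 7 members are near the background. The comparisons with serum share the 3 serum libraries.

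**Figure D2:**
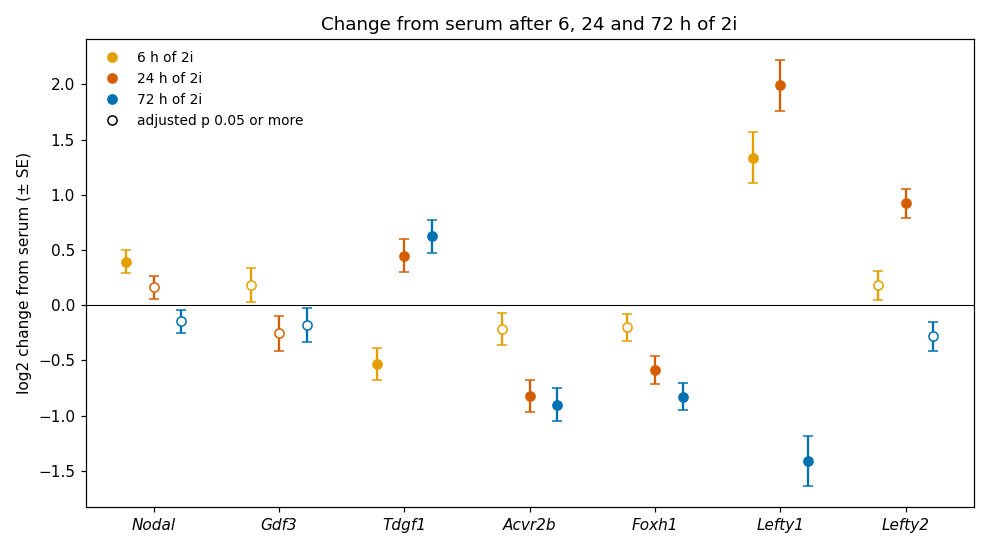
Log2 change from serum (y axis, ± SE from limma) of the 7 genes at 6, 24 and 72 h of 2i, with filled points for changes called at an adjusted p under 0.05. Lefty1 goes from 1.34 and 1.99 to -1.41, while Acvr2b and Foxh1 are called lower at 24 and 72 h.

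At 24 h, replicate 3 was the lowest library for all 7 genes, and for 47.8% of all genes tested. Without it the 24 h changes were called for the same 5 genes, and that of Lefty1 was 2.30. At 72 h, replicate 3 was lowest for 6 of the 7 and for 44.9% of all genes tested.

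By likeness of course over the 12 libraries (Pearson's r on log2 values, which also reflects what libraries share), the genes nearest to Lefty1 were Snn (0.97) and Tdrkh (0.96), and those nearest to Lefty2 were Tmem98 (0.98) and Armcx3 (0.98). Nearest to Nodal were Pllp (0.96) and Tubb3 (0.95), and to Gdf3 Tex19.1 (0.93) and Prdx6 (0.92). Tdgf1 was nearest to Bnip3 (0.99) and Zscan21 (0.97), Acvr2b to Impdh1 (0.97) and Smyd5 (0.96), and Foxh1 to Tatdn2 (0.98) and Cilp2 (0.98). Among the 7 genes themselves the closest pairs were Foxh1 with Acvr2b (0.90), Lefty1 with Lefty2 (0.89) and Nodal with Lefty1 (0.78), while Nodal with the other ligand Gdf3 gave 0.66.

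The remaining pathway was followed with lists of 36 genes, of which 29 were tested. The other scalings and fits given for the 7 members were not examined for these genes, so how far their changes depend on them is unknown. At 6 h, 5 of the 29 were called higher and 6 lower, at 24 h 7 and 12, and at 72 h 10 and 9, with median changes of -0.06, -0.23 and -0.12. Over all genes tested 9.13% were called higher and 6.48% lower at 6 h, 34.2% and 29.1% at 24 h, and 25.7% and 26.5% at 72 h. Of the 29 genes, 5 (Dand5, Eomes, Fgf8, Gsc and T) had at least 1 group with all 3 libraries below 0 and passed the filter through the groups where they were higher, so their calls are no support. Among the other 24, 2 were called higher and 5 lower at 6 h, 4 (16.7%) and 10 (41.7%) at 24 h and 8 (33.3%) and 7 (29.2%) at 72 h. Among other ligands, 3 of 4 were tested. Inhbb, which encodes an activin subunit, fell from 2.69 ± 0.19 in serum to 0.43 ± 0.17 at 6 h (SD, n = 3), and its log2 changes were -2.26, -2.15 and -2.58 at 6, 24 and 72 h (SE 0.15, adjusted p = 1.49e-07 at 72 h). Tgfb1 fell by 0.71 at 72 h (adjusted p = 0.00107). Gdf1, a partner of Nodal in heterodimers, rose by 1.59 at 24 h (adjusted p = 1.12e-05) and was 0.36 above serum at 72 h (adjusted p = 0.0769).

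Of the other receptors and co-receptor, 2 of 4 were tested. The type I receptor Acvr1b (ALK4) rose by 1.14 at 72 h (adjusted p = 0.000974), and the type II receptor Acvr2a fell by 0.37 at 24 h (adjusted p = 0.0363) and stood 0.12 below serum at 72 h (adjusted p = 0.494). All 3 Smads were tested. Smad2 fell by 0.67 at 24 h and 0.45 at 72 h, and Smad4, the common partner, fell by 0.39 and 0.38 on the log2 scale. Smad3 rose by 0.99 at 72 h (adjusted p = 0.000817), after a change of -0.05 at 24 h. Both convertases, which cut ligand precursors, were higher at 72 h, when 25.7% of all genes were: Pcsk6 rose by 1.54 (adjusted p = 2.27e-05) and Furin by 0.46 (adjusted p = 0.00685).

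Among 3 extracellular inhibitors, 2 were tested. Dand5, a Nodal antagonist, stood at -1.09, -1.04 and -0.59 in serum, at 0.98, 1.17 and 1.26 at 24 h and at 0.37, 0.59 and 0.60 at 72 h. It lay below 0 in all libraries of serum and 6 h and passed the filter through the 2 later groups, so its difference from serum is given as a description. Fst (follistatin), which binds activin, fell by 1.04 at 24 h (adjusted p = 0.00322). All 12 intracellular inhibitors and co-repressors were tested, and at 72 h 3 were called higher and 3 lower, near the 25.7% and 26.5% over all genes. The Smad co-repressor Skil fell by 1.71 at 24 h and 1.31 at 72 h (adjusted p = 2.54e-06 and 1.46e-05). Trim33 fell by 1.19 at 24 h, and Pmepa1 rose by 0.84 at 72 h (adjusted p = 7.38e-05 and 0.000112). Of 8 target genes, 5 were tested. Fgf8 stood at -0.50, -0.81 and -0.49 in serum, at 1.96, 1.88 and 1.37 at 24 h and at -1.79, -1.06 and -2.38 at 72 h. It passed the filter through 6 and 24 h, where it was highest, and both serum and 72 h lay below 0, so these differences too are a description. Gsc (goosecoid) stood at -2.99, -4.30 and -2.85 in serum, at -0.11, -0.54 and -1.01 at 6 h, at 1.73, 1.10 and -0.41 at 24 h and at 1.86, 2.51 and 1.33 at 72 h. Its serum libraries lay well below 0, with their mean at percentile 36.8 of the table. It passed the filter through 24 and 72 h, so the size of its change is uncertain.

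**Figure D3:**
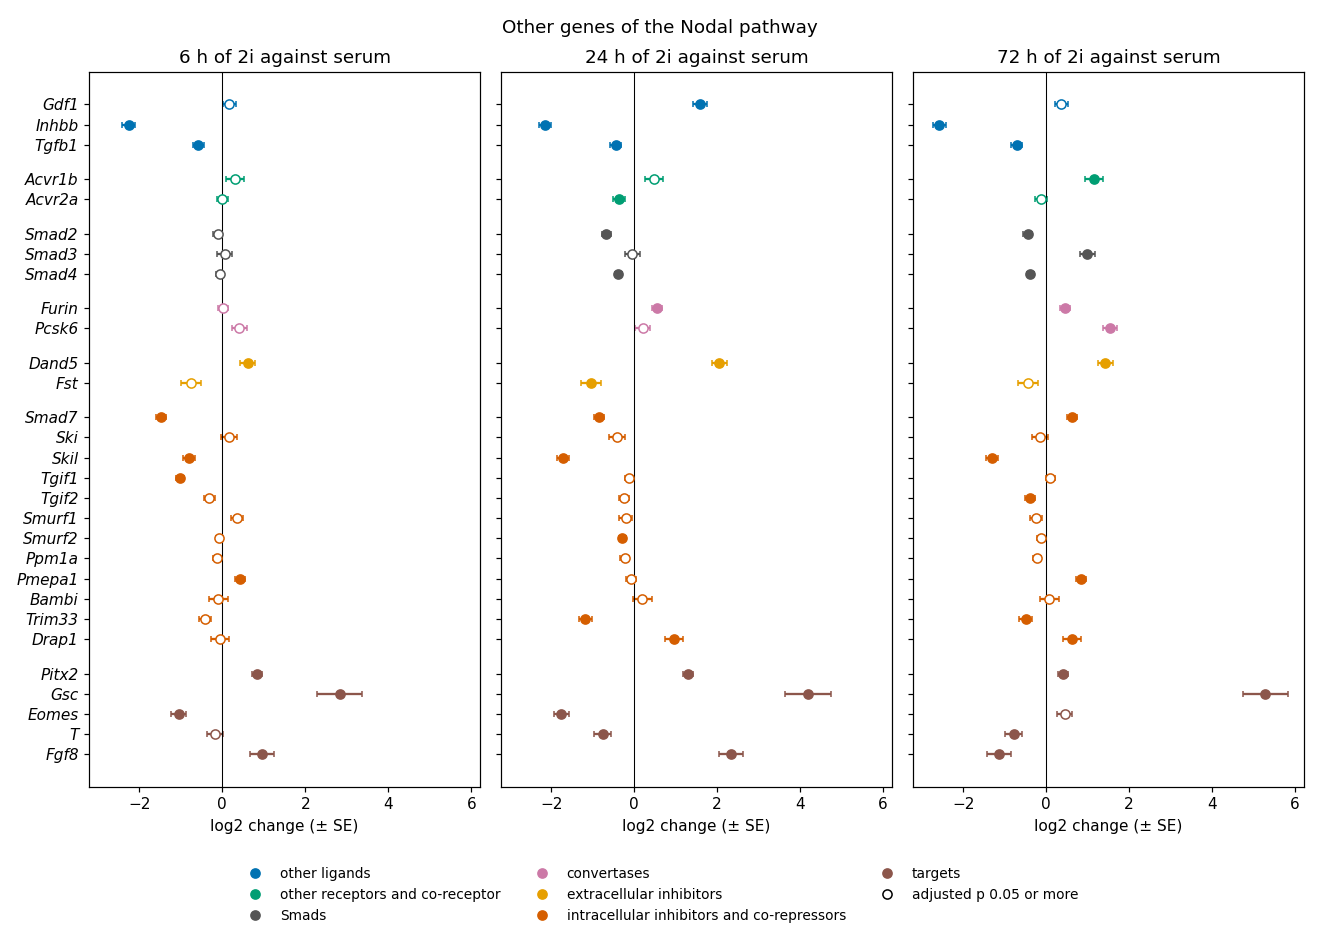
Log2 change from serum (x axis, ± SE from limma) of 29 other pathway genes at 6, 24 and 72 h of 2i, coloured by class and filled when called at an adjusted p under 0.05. Inhbb lies near -2.26, -2.15 and -2.58 in the 3 panels, and Dand5, Eomes, Fgf8, Gsc and T passed the filter through the groups where they were higher.

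H3K9me2, a mark of inactive chromatin, was examined over the same genes as an independent readout. Bound libraries held 14396552 to 19279328 reads and inputs 15878750 to 23785128 reads in 1026637 bins of 2 kb. Over the span of each gene the bound signal was low: in serum it ran from 0.0364 RPKM (reads per kb of bins and 1000000 reads) in Tdgf1 to 0.152 in Acvr2b, against a median of 0.270 over 23602 genes, while the inputs of the same spans held 0.355 to 0.629. These levels lay at percentile 4.71 (Tdgf1) to 31.3 (Acvr2b) of all genes. The serum input of Tdgf1 was low too, at percentile 8.81. No bin covered the part of the Tdgf1 span between 110940000 and 110942001, so its values describe the rest. Bound over input in serum ran from 0.0793 in Nodal to 0.261 in Acvr2b, with Tdgf1 at 0.103. Foxh1 held 2 reads in serum, under the floor of 3 reads (0.0397 RPKM), and is left out of these ranges. The values are scaled to library depth, so a loss shared by the whole genome cannot be seen, and intervals from reads would cover counting error only.

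Acvr2b was the only member with the 60 bound reads that the test required, since the other 6 held 4 to 57 in the 6 libraries together. Its 16 bins held 91 and 93 reads in serum, 50 and 53 at 24 h and 22 and 20 in LT2i. The LT2i libraries lay lowest and those of serum highest, with no overlap. The change at 24 h was -0.46 (SE 0.21, unadjusted p 0.0424, adjusted p = 0.297), so 0 members were called by limma at 24 h (2.62% of genes were called lower) and 1 at an unadjusted p under 0.05. In LT2i the change was -1.92 (SE 0.21, adjusted p = 1.89e-08), where 59.1% of genes were called lower and the median change over all genes was -0.65. Foxh1, with a single bin, had 1 read in each library of serum and 24 h and 0 in both of LT2i, which allows up to 0.0443 RPKM.

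Over spans extended by 10 kb on each side all 7 genes could be tested, and in LT2i 6 of 7 were called lower (15685 of 24233 genes were), all but Gdf3 (-0.56, adjusted p = 0.0558). There the changes ran from -1.84 in Tdgf1 to -1.23 in Lefty1. The members other than Acvr2b span 1665 to 7367 bases, so most of each of their extended windows is flanking sequence. These changes therefore describe the surroundings along with the gene. At 24 h limma called 0 of 7 over these spans, where 2.06% of all genes were called, so the count is near the background. At an unadjusted p under 0.05 it was also 0 of 7. The 24 h changes ran from -0.29 in Acvr2b to 0.43 in Gdf3, and their 95% intervals from -0.76 (Lefty2) to 1.02 (Foxh1). With 2 libraries per state and intervals of this width, a missing call does not show that the level stayed the same.

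**Figure D4:**
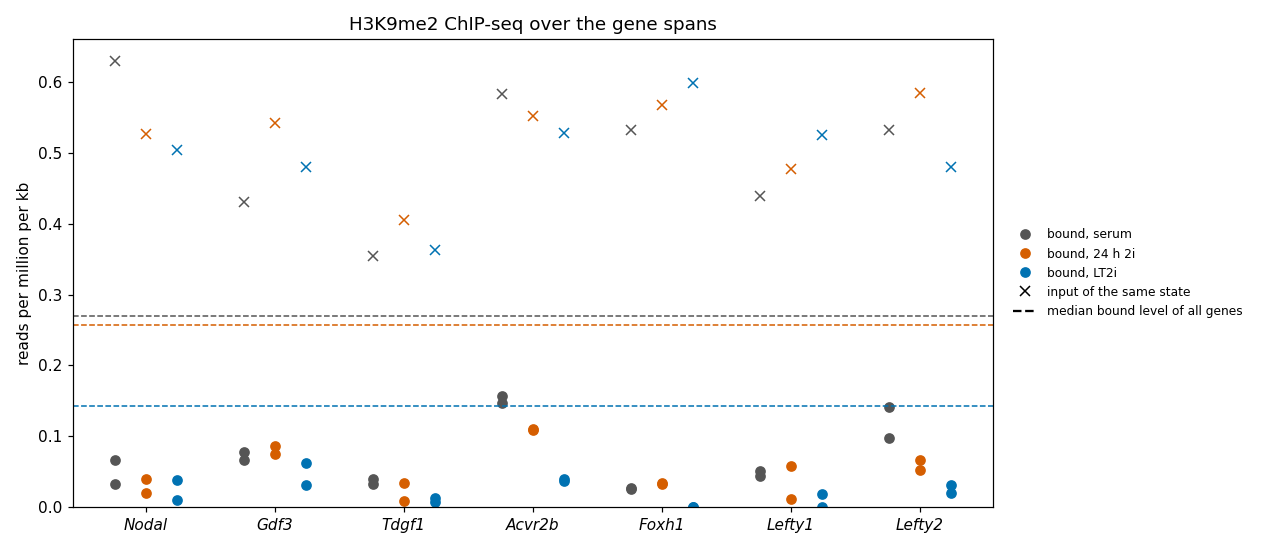
H3K9me2 level in RPKM (y axis, from 0) over the bins that overlap each of the 7 genes, with 1 point per bound library. A cross gives the input of the same state and a dashed line the median bound level of all genes in each state. In serum and at 24 h every member lies below the median of its state, and in LT2i all 7 lie below it as well.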

How the data were processed

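RNA was prepared with the TruSeq RNA v2 kit and sequenced as 50 bp single-end reads, per the labels. The authors deposited per-gene log2 values, scaled for length and depth and set to a common 75th percentile, and log2 ChIP-seq reads per 2-kb bin scaled to the deepest library. The submitters' processing notes name Trim Galore 0.3.5, TopHat2 2.0.11, Bismark 0.12.3 and Bowtie2, without roles. The counter is not stated there. Coordinates fit GRCm38. The bisulfite data lie on another build and were not used here.

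RNA-seq values were tested with limma 3.58.1 (R 4.3.3, eBayes with a variance trend) for genes at 0 or more in at least 3 of 12 libraries. H3K9me2 reads were recovered from the deposited log2 values, summed over bins that overlap a gene, and tested with limma as depth-scaled log2 reads with 1 read added, for genes with 60 or more bound reads. The recovered values were whole within 2% in 100% of bins. That tolerance grows with the count and is always met by bins with many reads, so it checks only bins with few reads. The fits were tested on simulated data. Other tables used Python 3.11.15. Alternatives were another scaling, other filters, a pseudocount of 1, a fold threshold, removal of the span trend, a replicate block and leaving out each library.

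Deviations of same-numbered libraries correlated across genes at 0.16 to 0.54 for 6 h with serum and at 0.11 to 0.47 for 24 h with serum. The range was 0.13 to 0.53 for 72 h with 6 h. A shared number may therefore mark a pair. The tests reported have no block, and the blocked value is given where it changed a call. The lowest correlation was 0.051 for 72 h with serum, 0.028 for 24 h with 6 h and -0.25 for 72 h with 24 h. Numbers that pair both 6 and 24 h with serum would also pair 6 h with 24 h, so the pairing is uncertain. The paper describes the replicates of its expression time course as biological. For ChIP-seq the sources used here do not say whether they are separate cultures, and p-values may then measure technical spread only.

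All 7 members are named. Other classes name at most the 2 largest called changes at 24 h and at 72 h, with other times of those genes, and each member the 2 genes most like it. The members and lists were chosen with earlier results of these data known.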

Additional observations from a re-analysis of the deposited data

Results flagged for a closer look

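For each of the results below, the change from serum differed between 2 times by a direct test (limma, adjusted over all genes). From 6 to 24 h the change of Gdf3 moved by -0.44, that of Acvr2b by -0.60 and that of Foxh1 by -0.39, and it moved up by 0.98 in Tdgf1, 0.65 in Lefty1 and 0.74 in Lefty2. From 24 to 72 h it moved by -3.40 in Lefty1, -1.21 in Lefty2 and -0.31 in Nodal. The largest of these was in Lefty1, where every 72 h value lay below every 24 h value. Under quantile normalisation the differences were 0.33 in Tdgf1 and 0.38 in Lefty1 from 6 to 24 h and -0.22 in Nodal from 24 to 72 h (limma adjusted p = 0.0961, 0.0605 and 0.0640). With the span trend removed, those of Lefty1 (0.20) and Nodal (-0.066) were also lost, and those from 6 to 24 h moved to -0.85 in Gdf3, -0.91 in Foxh1, 0.63 in Tdgf1 and 0.37 in Lefty2 and were still called. Of the 12 fits that left out a library, the call was lost in 10 for Nodal, 5 for Lefty1 (6 to 24 h), 4 for Gdf3 and 2 for Foxh1.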

How the results depend on the processing

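Requiring an absolute log2 change of 1 or more left 1 of the 7 genes called at 6 h, 1 at 24 h and 1 at 72 h against serum, and 0 for 24 h against 6 h, by construction, beside 5.30%, 27.5%, 21.0% and 22.05% of all genes. With the span trend removed 7 were called at 72 h (55.8% of all genes), and the sign turned for Nodal at 24 h (-0.16) and for Foxh1 from 24 to 72 h (0.087). Quantile normalisation turned Tdgf1 at 24 h (-0.22). The causes of these shifts were not tested. When single libraries were left out, 1 to 3 genes were called at 6 h, 4 to 5 at 24 h, 4 to 5 at 72 h, 3 to 6 for 24 h against 6 h and 2 to 4 for 72 h against 24 h. Over all genes these fits called 9.85% to 19.8%, 54.2% to 71.8%, 44.3% to 59.6%, 48.2% to 69.9% and 19.0% to 54.3%. The 6 h count fell to 1 without serum replicate 2, 6 h replicate 1 or 6 h replicate 2, and the 24 h against 6 h count to 3 without 6 h replicate 1. From 24 to 72 h, changes that were not called ran from -0.047 to 0.21 in Gdf3 and from -0.18 to 0.033 in Acvr2b. For H3K9me2 in LT2i, 6 genes were called over spans extended by 10 kb (64.7% of all genes were called lower). Without the filter on low reads 3 were called (53.3% of all genes were called lower). Over 2 kb on each side of the start no member had enough reads.

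With the replicate block, 3, 6 and 4 genes were called at 6, 24 and 72 h against serum, 7 for 24 h against 6 h and 3 for 72 h against 24 h. Over all genes the block called 20.9%, 71.0%, 60.9%, 68.2% and 47.1%, against 15.6%, 63.3%, 52.2%, 59.4% and 31.6% without it. For H3K9me2 the block left 0 at 24 h and 1 in LT2i, beside 6.51% and 70.1% of all genes called. It added Gdf3 at 24 h and, for 24 h against 6 h, Nodal (adjusted p = 0.0194), and changed no other call. Libraries of RNA-seq have unknown depth, and the members' few H3K9me2 reads limit that test to Acvr2b.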
